A study of Mus musculus with 2 samples.

Results

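Peaks of the transcription factor p53 in and around the 4 Hox gene clusters of the mouse were examined in embryonic kidney. The peaks came from chromatin immunoprecipitation followed by sequencing (ChIP-seq), in which proteins are fixed to DNA and the fragments held by an antibody are sequenced. Members were chosen by position: a peak belonged if its midpoint lay in the window drawn around HoxA on chromosome 6 (52080000 to 52240000), HoxB on chromosome 11 (96040000 to 96250000), HoxC on chromosome 15 (102730000 to 102890000) or HoxD on chromosome 2 (74490000 to 74620000), in the mm9 build. The windows held 31 of the 7893 peaks in the list: 11 in HoxA, 10 in HoxB, 4 in HoxC and 6 in HoxD. The windows were themselves selected on the deposited peak list, in which HoxA had stood out as peak-rich, so their peak numbers, widths and scores are given as descriptions and no test was made on them.

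The series consists of 2 libraries, 1 made with the p53 antibody sc-6243 and 1 of input DNA. Both were made from snap-frozen, formaldehyde-fixed kidney of wild-type C57BL mouse embryos at E15.5 (embryonic day), so genotype, strain and age are shared. The labels state neither the number of embryos nor whether kidneys were pooled. Whole kidney is a mixture of cell types, and a peak list carries no expression values with which the tissue label could be checked. Values below are those of the peaks called for the p53 library, which has no replicate. Whether the input library entered the peak calling as control is not given in the sources used here, and no values of it were analysed. The score is the authors' own value for each peak. MACS, the peak caller named in the track line, writes a log-transformed p-value in that field, though no scale is named in the list itself. The number of reads behind the list is unknown, so no interval can be given for the signal of a single peak. Intervals on peak numbers are exact at the 95% level, treat neighbouring peaks as independent and cover counting error only.

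Hox genes encode homeodomain transcription factors that give cells positional identity along the body axis. They lie in clusters in which the order of genes on the chromosome follows the order of their expression domains, and genes at the same place in different clusters are paralogs. In the kidney the Hox11 paralogs (Hoxa11, Hoxc11 and Hoxd11) are together required for the metanephric mesenchyme to induce the ureteric bud, and the Hoxb7 promoter is widely used to drive transgenes in the ureteric bud and its collecting duct derivatives. p53 binds DNA as a tetramer at paired copies of a short half-site and is best known for switching on genes of growth arrest and programmed cell death after DNA damage. All 38 Hox genes named with the windows were found in the RefSeq gene table, which is of the GRCm38.p6 assembly and not of mm9. It was used for gene names and order only. With rising coordinate, the order ran from Hoxa2 through Hoxa5 and Hoxa9 to Hoxa13 in HoxA. In the other clusters it ran the opposite way, from Hoxb13 to Hoxb1, from Hoxc13 to Hoxc4 and from Hoxd13 to Hoxd1. Peaks were not assigned to single Hox genes, since that would need gene positions in mm9.

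The promoters of Hox genes were searched for the p53 half-site as a description of the genes, separate from the peaks. RefSeq promoter entries, each of 250 bases before and 50 bases after a transcription start in GRCm38.p6, matched 22 of the 38 genes and numbered 24, as Hoxa10 and Hoxd11 have more than 1. By cluster they numbered 10 for HoxA, 3 for HoxB, 1 for HoxC and 10 for HoxD. An exact match to the p53 half-site, which reads alike on both strands, was found in 3 of the 24 (12.5%, exact binomial interval 2.66 to 32.4%), compared with 8.36% of all 32851 promoter entries. These are the promoters of Hoxa11, of Hoxd10 (a gene with a role in limb and motor neuron patterning) and of Hoxd4 (active in the hindbrain and cervical spine). Their 250 bases before the start are shown so that the match can be seen in its context, 5′ to 3′ on the gene's strand, with the half-site in capitals. The Hoxa11 stretch is at chr6:52245811-52246060 on the minus strand, Hoxd10 at chr2:74691641-74691890 and Hoxd4 at chr2:74721728-74721977, both on the plus strand, all in GRCm38.p6. These positions cannot be set against the mm9 positions of the peaks.
Hoxa11: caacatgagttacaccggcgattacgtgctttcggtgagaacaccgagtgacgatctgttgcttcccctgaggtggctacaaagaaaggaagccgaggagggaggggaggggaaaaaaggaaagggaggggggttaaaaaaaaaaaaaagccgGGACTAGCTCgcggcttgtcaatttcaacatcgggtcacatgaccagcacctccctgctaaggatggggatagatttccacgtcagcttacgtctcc
Hoxd10: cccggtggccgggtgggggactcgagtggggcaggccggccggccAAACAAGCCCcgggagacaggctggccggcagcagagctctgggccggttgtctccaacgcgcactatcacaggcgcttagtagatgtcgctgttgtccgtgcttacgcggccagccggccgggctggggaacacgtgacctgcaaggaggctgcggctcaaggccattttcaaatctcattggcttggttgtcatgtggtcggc
Hoxd4: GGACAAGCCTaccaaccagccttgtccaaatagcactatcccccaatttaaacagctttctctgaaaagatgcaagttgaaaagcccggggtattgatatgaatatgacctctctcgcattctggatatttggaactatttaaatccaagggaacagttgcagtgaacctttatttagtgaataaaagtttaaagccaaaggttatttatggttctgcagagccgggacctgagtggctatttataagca

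The half-site ran from 97 to 88 bases before the start in Hoxa11, from 205 to 196 in Hoxd10 and from 250 to 241 in Hoxd4. The central 6 letters of the half-site (A or G, then C, then A or T at both of the next places, then G, then C or T), which every full half-site also holds, occurred in 12 of the 24 Hox promoters (50%) and in 59.9% of all entries. Hoxd4 held 3 such matches, the highest number among the Hox promoters, and Hoxa11 and 1 of the Hoxa10 entries held 2 each. These shares do not place p53 at any of the genes.

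Base composition varied widely among the Hox promoters. CpG dinucleotides, which many promoters of developmental genes keep at high density, were counted relative to the number given by the C and G content of the same promoter. This ratio had a median of 0.626 over the Hox promoters and 0.384 over all entries, and it was at least 0.6 in 12 of the 24 (50%), compared with 35.8% of all. It was highest for Hoxa5 (1.02), a gene needed for lung and airway formation, and lowest for 1 of the 2 Hoxd11 entries (0.257). The other Hoxd11 entry stood at 0.875. GC content was highest for Hoxa13 (81.0%) and Hoxd13 (74.3%), the genes at the posterior end of their clusters that pattern the digits and genital tract, and lowest for Hoxd4 (39.7%). HoxB was represented by Hoxb1, Hoxb4 and Hoxb8 (ratios of 0.380, 0.593 and 0.970) and HoxC by Hoxc4 alone (0.333), so the clusters were not compared.

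Peaks were denser in each Hox window than in its flanks, the stretches of equal length on both sides. Density in HoxA was 6.88 peaks per 100 kb (exact Poisson interval 3.43 to 12.3), compared with 1 peak in 320 kb of flank, or 0.313 per 100 kb (0.00791 to 1.74). In HoxB it was 4.76 (2.28 to 8.76), and the flanks held 8 peaks in 420 kb, or 1.90 per 100 kb (0.822 to 3.75). The intervals of window and flanks overlapped for HoxB, where 7 of the 8 flank peaks lay on the lower-coordinate side. As the windows were selected on the same peak list, a distance between the intervals of a window and its flanks is no test.

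HoxD held 4.62 peaks per 100 kb (1.69 to 10.05). Its flanks held 0 in 260 kb, for which the exact interval reaches up to 1.42 per 100 kb. HoxC held 2.50 (0.681 to 6.40) and its flanks 4 peaks in 320 kb, or 1.25 per 100 kb (0.341 to 3.20). HoxC thus had the lowest density of the 4 windows, with an interval that overlapped those of the other windows and of its own flanks. Over all 4 windows, density was 4.70 peaks per 100 kb (3.19 to 6.67), over all flanks 0.985 (0.524 to 1.68), and over the spans from first to last peak of all chromosomes 0.310. Peaks covered 7.70% of the HoxA window, 7.75% of HoxB, 5.45% of HoxD and 1.86% of HoxC, compared with 0.292%, 1.55%, 0% and 1.47% of the respective flanks.

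**Figure D1:**
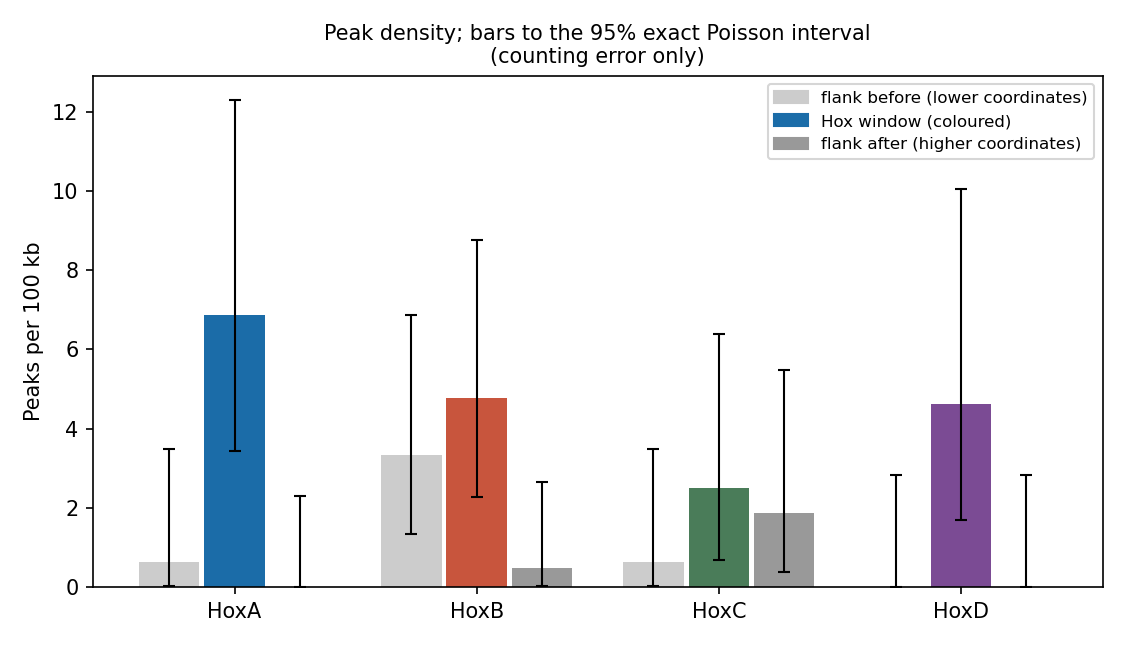
Peaks per 100 kb (vertical axis) in each Hox window (coloured bar) and in the flank of equal length before and after it (grey bars), with 95% exact Poisson intervals for counting error only. The HoxA window reaches 6.88 and the HoxC window 2.50 per 100 kb, and both HoxD flanks are at 0.

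HoxA peaks fell into a low-scoring and a higher-scoring stretch separated by the largest gap of the window, 31.4 kb. The first 3, from 52108147 to 52108699, from 52110720 to 52111497 and from 52113580 to 52114259, were 553, 778 and 680 bp wide and scored 63.9, 72.0 and 67.85. The next, from 52135007 to 52135709, lay 20.7 kb after the peak before it, was 703 bp wide and scored 68.7. All of these scored near the lowest value in the list, 60.01, and lay on the side of the cluster that begins with Hoxa2 in the gene order.

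After the gap came 7 peaks within 29.9 kb. The highest-scoring and widest peak of HoxA ran from 52175271 to 52177227, scored 194 and was 1957 bp wide. Its neighbour from 52170833 to 52172743 was nearly as wide (1911 bp) and scored 163, and the peak from 52167113 to 52168012 was narrower (900 bp) and scored 139. A run of 3 peaks then followed almost without a break, with gaps of 256 and 262 bp: from 52180406 to 52181252 (847 bp, score 109), from 52181509 to 52183035 (1527 bp, score 116) and from 52183298 to 52184104 (807 bp, score 91.05). The last peak, from 52195333 to 52196990, lay 11.2 kb after the run, was 1658 bp wide and scored 114. Scores of the 4 peaks before the gap (63.9 to 72.0) and of the 7 after it (91.05 to 194) did not overlap, and neither did their widths (553 to 778 bp and 807 to 1957 bp). This division was chosen after the values were seen. Merging peaks no more than 1 kb apart joined the run of 3 into 1 region and left 9 in the window.

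HoxB held the highest-scoring and the widest peak of the 4 windows. The 10 peaks spanned 104 kb, with gaps from 3.35 to 17.4 kb and none under 1 kb. The closest pair was formed by the peaks from 96155758 to 96157232 and from 96160585 to 96162475. The largest gap lay between the latter peak and the peak from 96179893 to 96181790. The first 72.0 kb of the window, on the side that begins with Hoxb13 in the gene order, held no peak. The highest score, 370, belonged to the peak from 96179893 to 96181790 (1898 bp), rank 238 of 7893. The widest, from 96212644 to 96216270, measured 3627 bp at a score of 224 and ranked 5 by width in the whole list.

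The score of HoxB closest to its highest belonged to the peak from 96132763 to 96134194 (1432 bp, score 267). The widest peak of the cluster came next in score, and after it the peak from 96146455 to 96148207 (1753 bp, score 212). The peak from 96160585 to 96162475 (1891 bp) scored 190, and the peak from 96204933 to 96206613 (1681 bp) scored 136. The peak from 96155758 to 96157232 was 1475 bp wide although it scored only 98.8. In all, 7 of the 10 were wider than 1400 bp. The narrowest 3 were those from 96112031 to 96112690 (660 bp, score 137), from 96122644 to 96123367 (724 bp, score 72.2) and from 96186758 to 96187889 (1132 bp, score 85.4). The first 2 peaks on the Hoxb13 side were thus the narrowest of the cluster.

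HoxC peaks were few, narrow and low in score. The highest-scoring and widest ran from 102806878 to 102808042, with 1165 bp and a score of 117. It lay 354 bp after a peak of 780 bp that scored 68.0, from 102805744 to 102806523. The remaining peaks, from 102823136 to 102823719 (584 bp, score 65.4) and from 102863068 to 102863514 (447 bp, score 73.3), lay 15.1 and 39.3 kb after the peak before them. The first 75.7 kb of the window, on the Hoxc13 side, held none. A peak wider and higher in score than any inside, from 102890427 to 102892442 (2016 bp, score 155), began 427 bp beyond the upper limit. It was counted among the 4 flank peaks of HoxC and not in the window. With limits moved outward by 10 kb the window held 5 peaks.

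HoxD peaks were packed into a short stretch of an otherwise peak-free region. All 6 lay within 26.8 kb, or 20.6% of the window, where they reached 22.4 per 100 kb. The highest-scoring ran from 74519472 to 74520724 (1253 bp, score 202) and the widest from 74535425 to 74537475 (2051 bp, score 174). Next came the peak from 74541886 to 74543291 (1406 bp, score 143), followed after only 73 bp by one from 74543365 to 74544313 (949 bp, score 82.6). The peaks from 74517493 to 74518233 (741 bp, score 83.8) and from 74524272 to 74524951 (680 bp, score 84.9) were narrow and low. They lay on either side of the highest-scoring peak, and the largest gap inside was 10.5 kb.

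Outside this stretch no peak was called for 768 kb towards lower and 903 kb towards higher coordinates. Gaps at least as long made up 10.1% and 8.59% of all gaps between neighbouring peaks of the list. The last 75.7 kb of the window, towards the Hoxd1 end in the gene order, held none. The other clusters were less isolated. The nearest peaks outside HoxA lay 117 kb before and 316 kb after the window limits (scores 131 and 137). For HoxB these distances were 102 and 18.9 kb (scores 80.3 and 79.2), and before HoxC the nearest lay at 152 kb (score 122).

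**Figure D2:**
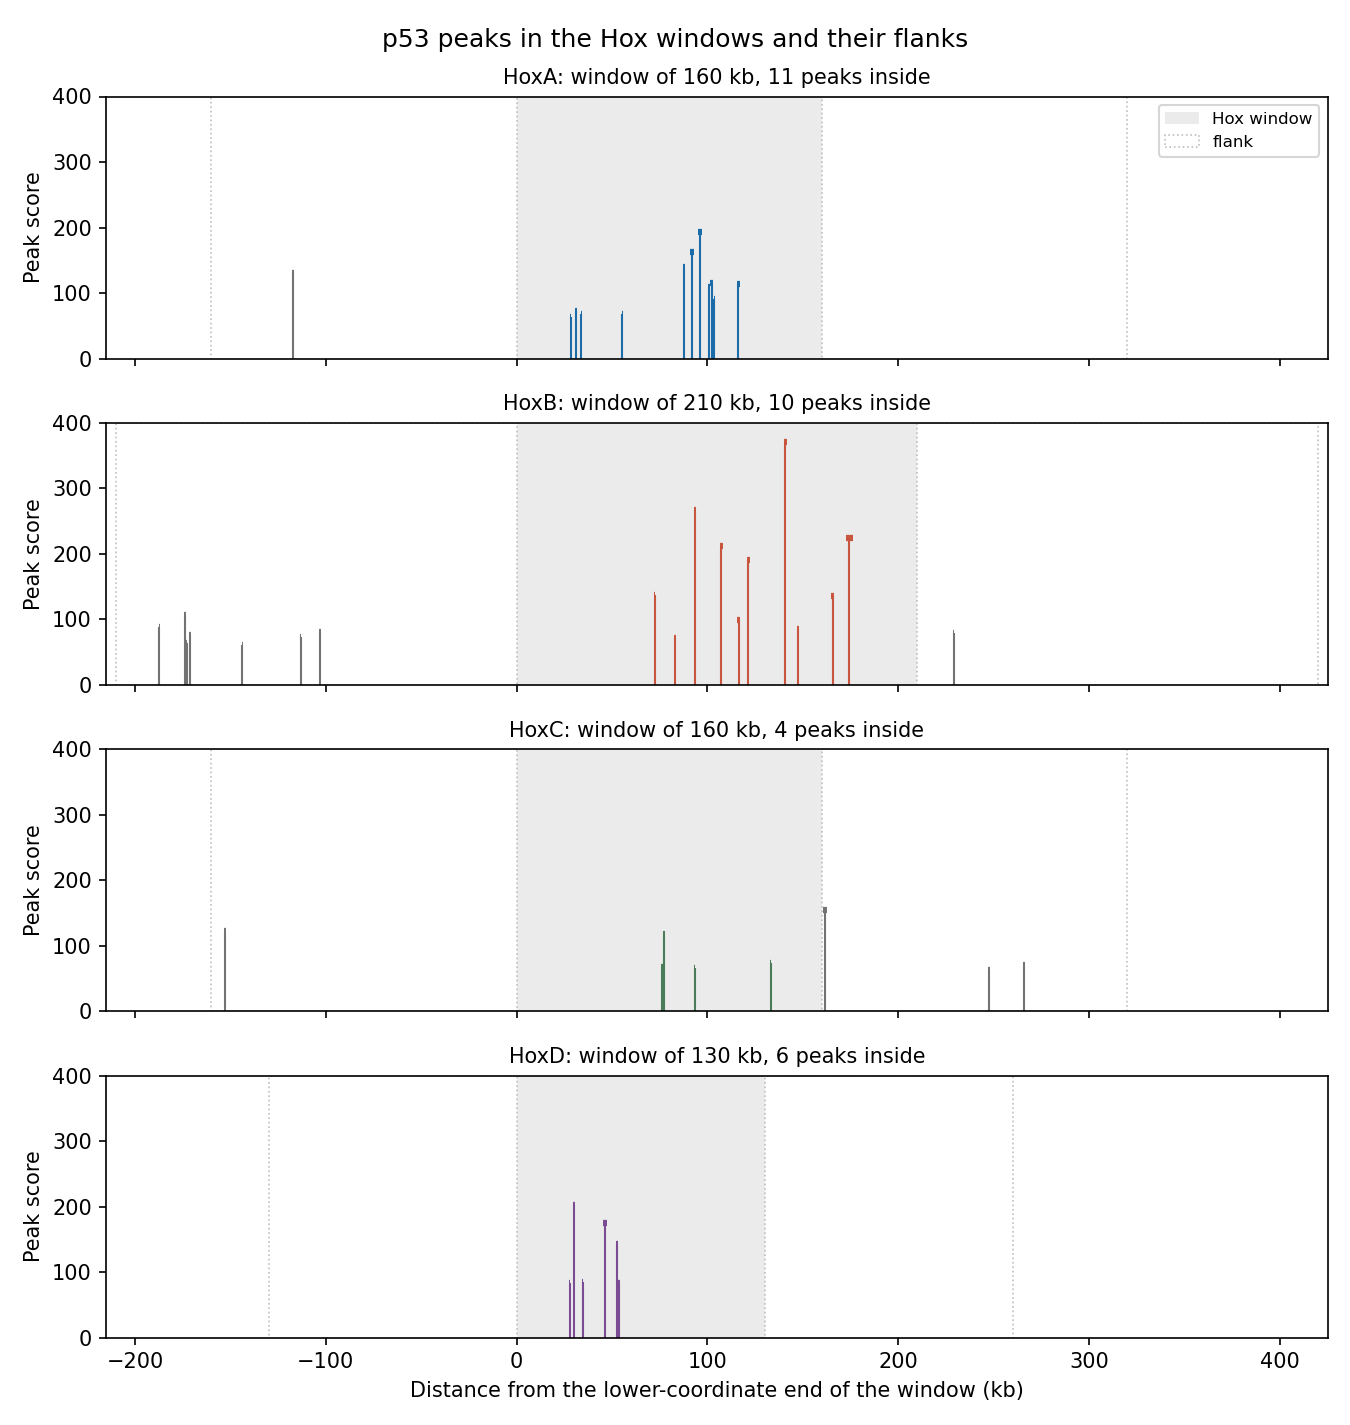
Peak score (vertical axis) against distance from the lower-coordinate end of each window in kb (horizontal axis). Each stem is 1 peak and its cap spans the peak's width, with the Hox window shaded, flanks bounded by dotted lines, member peaks coloured and other peaks grey. HoxD peaks lie within 26.8 kb with empty flanks, and HoxA peaks show the 31.4 kb gap between a low and a higher group.

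Along the windows, 19 of the 31 midpoints (61.3%, exact binomial interval 42.2 to 78.2%) lay in the middle of 3 equal parts of their window. The margins between the outermost peaks and the window limits were unequal, from 26.5 to 75.7 kb, so this describes the windows and not distances from genes. The part at lower coordinates held 3 HoxA and 3 HoxD peaks and none of HoxB or HoxC, and the part at higher coordinates held 4 HoxB peaks, 1 each of HoxA and HoxC and none of HoxD. Neighbouring peaks of a window were separated by a median of 4.97 kb (27 gaps), compared with 87.8 kb over the whole list. Gaps inside a window cannot exceed its length, and those from its outermost peaks to the next peak outside were left out. Gaps of the whole list have no such limit, so part of this difference is built in. Another midpoint lay within 10 kb of 24 of the 31 peaks (77.4%), compared with 19.8% of all peaks. The windows were chosen as peak-rich, so nothing is read from these gaps or this share.

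Wide peaks made up the highest share of the members in HoxB. The share of Hox peaks scoring at least 300 was near that of all peaks. The median width of the 31 was 1132 bp (order-statistic interval 778 to 1527), an interval that includes the 869 bp of all peaks and the 878 bp of the 13 flank peaks. Without the widest peak of each window the median was 900 bp. Their median score was 114 (83.8 to 143), compared with 96.8 over all peaks and 79.2 in the flanks. At least 1142 bp, the upper quartile of all widths, was reached by 15 of 31 (48.4%, exact binomial interval 30.2 to 66.9%), where 25.0% of all peaks reach it. By cluster these were 7 of 10 in HoxB, 4 of 11 in HoxA, 3 of 6 in HoxD and 1 of 4 in HoxC. A score of at least 100 was reached by 17 of 31 (54.8%, with 47.6% of all peaks) and a score of at least 300 by 1 (3.23%, with 4.87% of all peaks). These medians and shares come from the list on which the windows were selected and are not a test. Their intervals treat neighbouring peaks as independent.

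Width differed from that of all peaks by more at scores from 100 to below 300 than below 100. In the higher class the median width was 1592 bp over 16 Hox peaks and 1036 bp over all 3376 peaks of that class. Below 100 it was 732.5 bp over 14 Hox peaks and 725 bp over all 4133. Across the 31 peaks score and width had a rank correlation (Spearman's rho) of 0.81, and across all 7893 it was 0.56. The peaks come from 1 library and are not independent, so these values are descriptions.

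Medians of both measures took the same order over the clusters, and the width medians of HoxA and HoxC lay below that of all peaks. HoxB peaks had a median width of 1578 bp and score of 164, HoxD 1101 bp and 114, HoxA 847 bp and 109, and HoxC 682 bp and 70.65. The ranges overlapped between all clusters, with widths from 553 to 1957 bp in HoxA, 660 to 3627 in HoxB, 447 to 1165 in HoxC and 680 to 2051 in HoxD. With 4 to 11 peaks of 1 library in a cluster, the order was not tested.

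**Figure D3:**
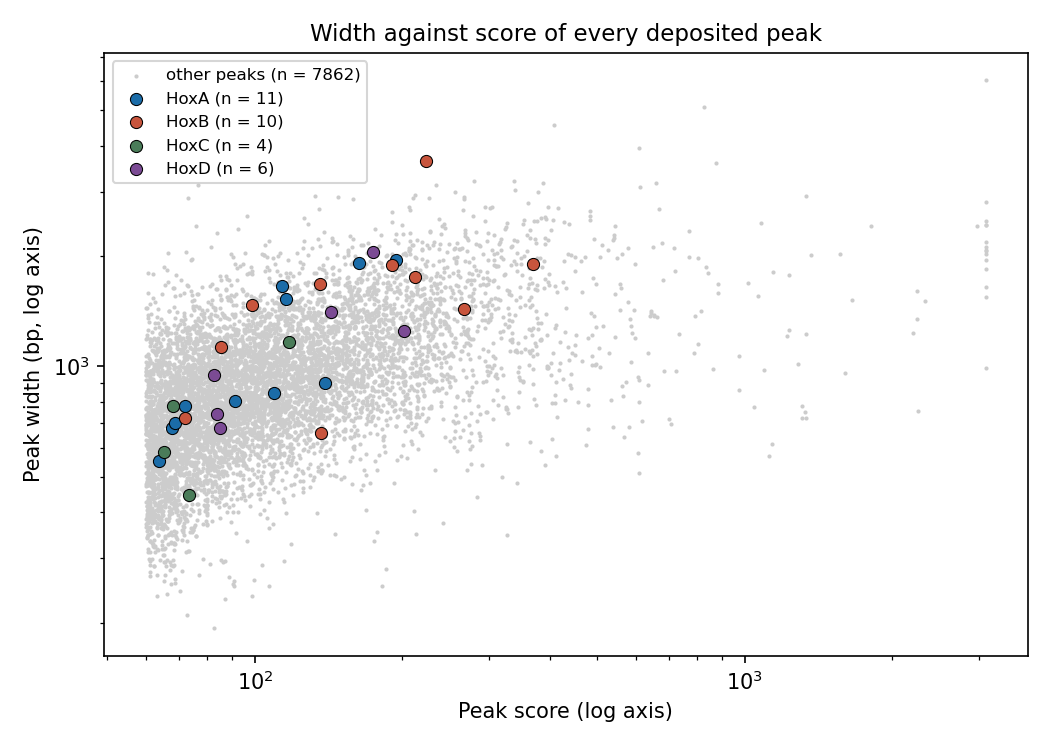
Width in bp against score, both on log axes, for each of the 31 Hox peaks (coloured by cluster) and the other peaks (grey). HoxB peaks lie towards large widths, up to 3627 bp, and the highest Hox score is 370.

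The density of the windows was set beside that of the whole list by dividing each chromosome, from its first to its last peak, into consecutive stretches of the same length. The stretches that overlap Hox windows are among them. Of 15923 stretches of 160 kb, 5 (0.0314%) held at least the 11 peaks of HoxA and 355 (2.23%) at least the 4 of HoxC. Stretches shifted along the chromosome gave 0.00628% in place of 0.0314% for HoxA, so this share rests on very few stretches. Of 12129 stretches of 210 kb, 17 (0.140%) held at least the 10 of HoxB, and of 19599 stretches of 130 kb, 62 (0.316%) held at least the 6 of HoxD. Overlapping a Hox window were 0 of the 5, 3 of the 355, 1 of the 17 and 2 of the 62. By bases under peaks the shares were 0.0440% for HoxA, 0.0247% for HoxB, 3.45% for HoxC and 0.189% for HoxD. These were 7, 3, 549 and 37 stretches, of which 1, 0, 4 and 3 overlapped a Hox window. The windows were placed to enclose the clusters and the stretches were not, so these shares describe rank and give no probability.

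**Figure D4:**
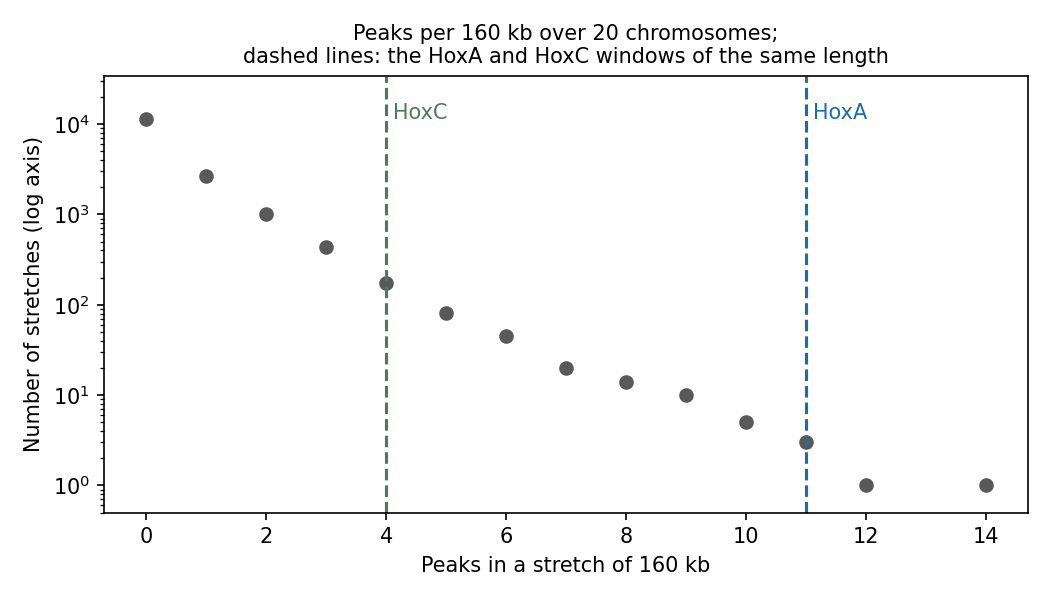
Number of stretches (vertical log axis) that hold each number of peaks (horizontal axis), for 15923 consecutive stretches of 160 kb. Dashed lines mark the HoxA window with 11 peaks, a number that 5 stretches reach (0.0314%, but 0.00628% with shifted stretches), and the HoxC window with 4, which 355 reach; stretches that overlap Hox windows are included.

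Other peak-rich regions also held wide peaks. This comparison was chosen after the values were seen. The 352 stretches of 160 kb with at least 4 peaks that did not overlap a Hox window held 1802 peaks with a median width of 938 bp, and 31.4% of these were at least 1142 bp wide. The 9 such stretches with at least 10 peaks held 99 peaks with a median width of 1020 bp (915 to 1178), of which 43.4% were that wide. For the 31 Hox peaks these values were 1132 bp (778 to 1527) and 48.4% (30.2 to 66.9%). Such intervals are broad and treat neighbouring peaks of 1 library as independent. Whether Hox peaks differ in width from those of other peak-rich stretches was therefore not tested. At scores from 100 to below 300 the medians were 1076 bp over 831 peaks, 1150.5 bp over 52 peaks and 1592 bp over the 16 Hox peaks. Scores of at least 300 made up 10.1% of the peaks in the 9 densest stretches. Among the Hox peaks it was 1 of 31 (3.23%, exact binomial interval 0.0816 to 16.7%).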

How the data were processed

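ChIP-seq peaks of 1 p53 library were analysed. Of the 2 libraries in the series, the input library entered no comparison. The authors deposited 1 score per peak with chromosome, start, end and name. MACS made the list, per the file headers, and the build is mm9, per the submitters' processing notes. Not given in the sources used here are the aligner, the MACS version and settings, duplicate handling and whether the input served as control. Such settings can change where 1 peak ends and the next begins. Starts, counted from 0 in the list, are given 1-based. The depth is unknown.

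The members, windows and gene list were chosen with earlier results of these data known. Peaks were assigned by midpoint, and flanks have the length of the window. Alternatives were a score of at least 100, merging within 1 kb, membership by overlap, limits moved by 10 kb and other flanks. Each Hox peak is given, and in each window the highest-scoring and widest peak, the closest pair and the largest gap are singled out. Promoters printed are the Hox promoters with a half-site match. Sequence and gene models in mm9 were not used here, so the planned distances of peaks to genes and motifs under peaks were not run. Counting, merging and coverage were tested on simulated data. Python 3.11.15, numpy 2.4.6, pandas 2.3.3, scipy 1.17.1 and matplotlib 3.10.9 were used.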

Additional observations from a re-analysis of the deposited data

How the results depend on the processing

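Keeping only peaks that scored at least 100 left 6 peaks in HoxA, 1 in HoxC and 3 in HoxD, lowered the flanks to 0.303 peaks per 100 kb, raised the median width of Hox peaks to 1658 bp and their median score to 163, and lowered the covered share of the windows from 5.86 to 4.18%. The filter removes low-scoring peaks by construction. The covered share became 5.999% on merging peaks within 1 kb, 5.50% with limits moved outward by 10 kb and 6.66% with limits moved inward. Stretches shifted along the chromosome gave 0.00628% in place of 0.0314% with at least as many peaks as HoxA. The unshifted share rests on 5 stretches and the shifted share on fewer still. Matching only the 6 central letters raised the Hox promoters with a match from 3 to 12. Of 55 alternative values, these 12 moved and 43 stayed within 1.5 times the main count or within the interval of the main value. The covered share has no interval and was counted as moved beyond 0.005 percentage points, although its 4 moved values lie within 1.5 times the main one. Among those that stayed, the median width fell to 900 bp without the widest peak of each window. Alternatives for peaks at genes and for sequence under peaks were not run, as they need mm9. No paired analysis was possible because there is a single library of each kind. As the read number is unknown, whether deeper sequencing would add peaks to the windows cannot be judged.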
